A study of Mus musculus with 6 samples.

Results

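Peritubular myoid cells are flat, contractile cells that wrap the seminiferous tubules, and their contraction moves fluid and sperm along the tubule. They carry the contractile machinery of smooth muscle. In that machinery calcium and calmodulin activate myosin light chain kinase, the kinase phosphorylates the regulatory light chain, and smooth muscle myosin then pulls on actin filaments. Many of the genes involved are driven in smooth muscle by serum response factor (SRF) and its myocardin-family partners, which act at a DNA element called the CArG box. The 10 genes described here encode parts of this machinery: Acta2, Myh11, Cnn1, Tagln, Des, Actg2, Myl9, Lmod1, Mylk and Smtn. They were chosen by symbol as smooth muscle genes of the testis. All 10 were found among the 55487 gene identifiers of the count table, and all 10 passed the filter on low counts that left 19826 genes to test.

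The data are counts of sequenced polyadenylated RNA from whole testes of mice at postnatal day 19, with 3 libraries of the genotype labelled control and 3 of the genotype labelled dsfb. The title of the series writes the altered genotype as Hormad1&2SFB/SFB. Hormad1 and Hormad2 encode proteins of the meiotic chromosome axis in germ cells. The sources used here do not state the strain, what the SFB alleles change or which alleles the controls carry. Per the design text the testes came from separate mice, so n = 3 per group counts mice.

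Control libraries held 23983373 to 27707291 counted reads and dsfb libraries 15335130 to 17306363. Of all tested genes 30.7% rose and 36.2% fell in dsfb (edgeR adjusted p under 0.05), or 66.9% in either direction. Of all calls 45.9% were rises, or 57.2% with upper-quartile scaling, 60.9% with library size alone and 35.5% with no filter on low counts. Control replicate 3 stood apart from the other controls. Chi-square per degree of freedom, a measure of difference beyond sampling noise, was 74.1 and 69.8 against control replicates 1 and 2. Between control replicates 1 and 2 it was 6.84. A list of 8 genes of spermatids, the haploid germ cells, was drawn up with the values in view. In CPM (counts scaled to a common library total, with TMM-scaled library sizes) it summed to 642 in control replicate 3. The sums were 140 and 160 CPM in control replicates 1 and 2 and between 7.23 and 9.19 CPM in dsfb.

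Most contractile genes took a larger share of the RNA in dsfb testes. Together the 10 genes supplied 0.0492, 0.0403 and 0.0344% of the counts of control replicates 1, 2 and 3 and 0.103, 0.103 and 0.0821% of those of dsfb replicates 1, 2 and 3. With TMM scaling, which sets libraries on a common scale by the bulk of genes, 7 of 10 rose and 0 fell, beside 30.7% of all tested genes that rose, 36.2% that fell and 66.9% called in either direction. Their median log2 fold change was 0.86, against 0.02 over all tested genes. In 8 of the 10 every dsfb library lay above every control library, as it did for 36.2% of all tested genes. Against Sertoli cell markers in place of the bulk of genes this direction did not hold, and 5 of the 10 changed sign from positive to negative. Counts are shares of a library. In whole testes more cells of a type, more RNA per cell and less RNA from other cells therefore cannot be told apart.

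**Figure D1:**
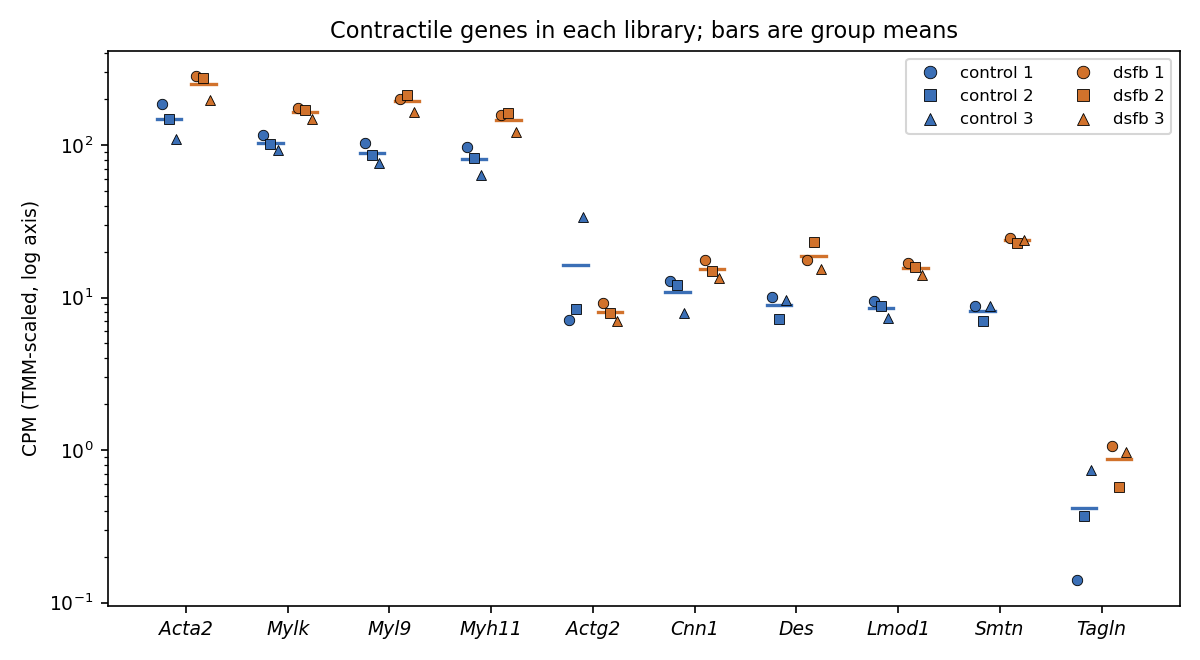
Level of each contractile gene in each library, in CPM with TMM scaling on a log axis; points are libraries and horizontal bars are group means (n = 3). In 8 genes the dsfb points lie above all control points, while for Actg2 the highest point is control replicate 3 and for Tagln the groups overlap near 1 CPM.

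The force-generating proteins come first. Acta2 (ENSMUSG00000035783, chromosome 19, 34241090 to 34255590, minus strand, mm10) encodes alpha smooth muscle actin, the classic marker of these cells. Control libraries 1, 2 and 3 gave 184, 148 and 110 CPM, and dsfb libraries 1, 2 and 3 gave 283, 274 and 198 CPM. The groups did not overlap, but the lowest dsfb library was close to the highest control. The log2 change was 0.78 (SE 0.21, edgeR adjusted p = 0.0122), and without dsfb replicate 1 it was 0.69 and no longer passed (edgeR adjusted p = 0.0501). Myh11 (chromosome 16, 14194535 to 14291372, minus strand), the smooth muscle myosin heavy chain, was at 96.5, 82.6 and 63.2 CPM in control and 156, 163 and 121 CPM in dsfb. Again the third library was the lowest of each group. Myh11 rose 1.82-fold (log2 0.86, SE 0.18, edgeR adjusted p = 0.00342). The ratio of Myh11 to Acta2 varied little, at 0.553 ± 0.0270 in control and 0.586 ± 0.0307 in dsfb (SD, n = 3, in CPM), with overlapping groups.

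Actg2 (chromosome 6, 83512905 to 83536265, minus strand), gamma smooth muscle actin of gut and other visceral muscle, had another pattern. Control libraries 1, 2 and 3 gave 7.07, 8.38 and 33.5 CPM, and the dsfb libraries 9.19, 7.86 and 6.97 CPM. Only control replicate 3 stood out, and it is the library with the high spermatid markers. The part of those cells in this value was not tested. Its log2 value, -1.03 with an SE of 0.57, did not pass (edgeR adjusted p = 0.146), passed with DESeq2 (log2 -1.13, adjusted p = 0.0427), and was 0.02 without control replicate 3 (edgeR adjusted p = 0.927). The actins have nearly the same coding sequence, so reads could be divided between copies. The skeletal and cardiac actins Acta1 and Actc1 were at most at 0.371 and 0.233 CPM in any library. Of the cytoplasmic actins, Actb was called higher and Actg1 lower in dsfb. The part of shared reads in these values was not tested.

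The genes of the contraction switch were called higher as well with TMM scaling. Relative to Sertoli markers Myl9 was not called and Mylk was called lower, and relative to Leydig markers neither was called. Myl9 (chromosome 2, 156775420 to 156781658, plus strand), the regulatory light chain that is phosphorylated to start contraction, was at 104, 85.6 and 76.0 CPM in control and at 202, 214 and 165 CPM in dsfb. Even the lowest dsfb library was well above the highest control. It rose 2.19-fold (log2 1.13, SE 0.15, edgeR adjusted p = 0.000349). Mylk (chromosome 16, 34745210 to 35002420, plus strand), the kinase that phosphorylates it, was at 116, 101 and 92.7 CPM in control and 176, 169 and 148 CPM in dsfb, and rose 1.59-fold (log2 0.67, SE 0.11, edgeR adjusted p = 0.00132). The kinase had the smallest change among the 7 called genes. Mylk also makes a longer non-muscle kinase from the same locus, and the counts cover the whole gene. Myl9 per Acta2 was higher in every dsfb library, at 0.774 ± 0.0594 against 0.612 ± 0.0711 in control, while Mylk per Acta2 overlapped between groups (0.661 ± 0.0747 in dsfb and 0.721 ± 0.112 in control). Smtn per Acta2 was also higher in every dsfb library (0.0971 ± 0.0207 against 0.0584 ± 0.0186 in control). Cnn1 per Acta2 (0.0613 against 0.0744) and Actg2 per Acta2 (0.0321 against 0.134) were lower in every dsfb library. How many of all tested genes separate in this way was not computed.

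Smtn, Lmod1 and Cnn1, which encode filament-binding proteins, all had positive log2 values, and of these Cnn1 alone did not pass. Smtn (chromosome 11, 3517523 to 3540612, minus strand) encodes smoothelin, an actin-binding protein of contractile smooth muscle. It was at 8.75, 7.06 and 8.76 CPM in control and 24.7, 22.8 and 24.0 CPM in dsfb. Smtn had both the tightest dsfb values for its level and the largest change of the 10, a rise of 2.91-fold (log2 1.54, SE 0.16, edgeR adjusted p = 0.000101). It was the one gene of the 10 that passed a test against a threshold of 2-fold, as 2.73% of all tested genes did upwards. Of its exonic bases 16.3% overlap Gm11946 on the opposite strand, which had at most 6 counts in any library. Lmod1 (chromosome 1, 135324807 to 135368065, plus strand), leiomodin, a nucleator of actin filaments in smooth muscle, was at 9.45, 8.80 and 7.37 CPM in control and at 16.7, 15.8 and 14.0 CPM in dsfb (log2 0.86, SE 0.18, edgeR adjusted p = 0.00333). Cnn1 (chromosome 9, 22099216 to 22109630, plus strand), calponin, an inhibitor of actomyosin that marks mature smooth muscle, was at 12.8, 12.1 and 7.88 CPM in control and at 17.6, 14.97 and 13.3 CPM in dsfb. The groups barely separated, and with a log2 value of 0.49 and an SE of 0.23 it did not pass (edgeR adjusted p = 0.0914).

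Des (chromosome 1, 75360329 to 75368579, plus strand), the intermediate filament protein desmin, was at 10.01, 7.27 and 9.69 CPM in control and 17.6, 23.0 and 15.4 CPM in dsfb, with no overlap, and rose 2.08-fold (log2 1.05, SE 0.22, edgeR adjusted p = 0.00354). Tagln (chromosome 9, 45929619 to 45936058, minus strand), transgelin or SM22, is an abundant actin-binding protein of smooth muscle, yet it had 3, 9 and 16 counts in control and 21, 10 and 18 in dsfb. At 0.418 ± 0.304 and 0.871 ± 0.262 CPM the groups overlapped and the test did not pass (log2 1.06, SE 0.57, edgeR adjusted p = 0.135). Without control replicate 3 the log2 change was 1.69 (edgeR adjusted p = 0.0128). In GENCODE M21 62.4% of the exonic bases of Tagln overlap Gm48529 on the opposite strand, which had 49 to 88 counts per library, and 5.43% overlap Pcsk7. How reads in shared bases were counted is unstated, so the level of Tagln is uncertain. Desmin, Mylk and Smtn also overlap antisense transcripts, over 16.3% of their exonic bases or less.

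Per length the genes ranked over a wide range. In CPM per kilobase of merged exons, the control order was Myl9 at 76.1 ± 12.1, Acta2 at 67.0 ± 17.0, Myh11 at 10.6 ± 2.20, Actg2 at 10.5 ± 9.57, Mylk at 9.18 ± 1.06, Cnn1 at 3.99 ± 0.969, Des at 2.39 ± 0.399, Lmod1 at 2.16 ± 0.269, Smtn at 1.87 ± 0.223 and Tagln at 0.210 ± 0.153 (SD, n = 3). Myl9 and Acta2 stood far above the rest. Without control replicate 3 the Actg2 level was 4.96 ± 0.594 per kilobase (SD, n = 2), which put it below Mylk, and that of Tagln was 0.129 ± 0.0825. Several neighbours in this order lay within their spread, namely Myl9 and Acta2, then Myh11, Actg2 and Mylk, then Des, Lmod1 and Smtn. In dsfb Myl9 reached 166 ± 22.1 and Acta2 115 ± 21.2 on the same scale, and Smtn, at 5.44 ± 0.220, was level with Cnn1 at 5.59 ± 0.781.

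Many of the genes also had their highest or lowest value of a group in the same library, which was not compared with all tested genes. Control replicate 3 was the lowest of its group for 6 of the 10 genes and dsfb replicate 3 for 8 of the 10. Control replicate 1 and dsfb replicate 1 were each the highest of their group for 7. The exceptions in dsfb replicate 3 were Smtn and Tagln. Actg2, with its single high control library, and Tagln, with its few counts, had other profiles. Sertoli markers also summed lowest in control replicate 3, at 2795 CPM against 3702 and 3348 CPM in control replicates 1 and 2. In dsfb replicate 3 they were not the lowest (6634 CPM against 6465 and 6851 CPM). Leydig markers summed lowest in control replicate 2 (513 CPM) and in dsfb replicate 3 (859 CPM).

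**Figure D2:**
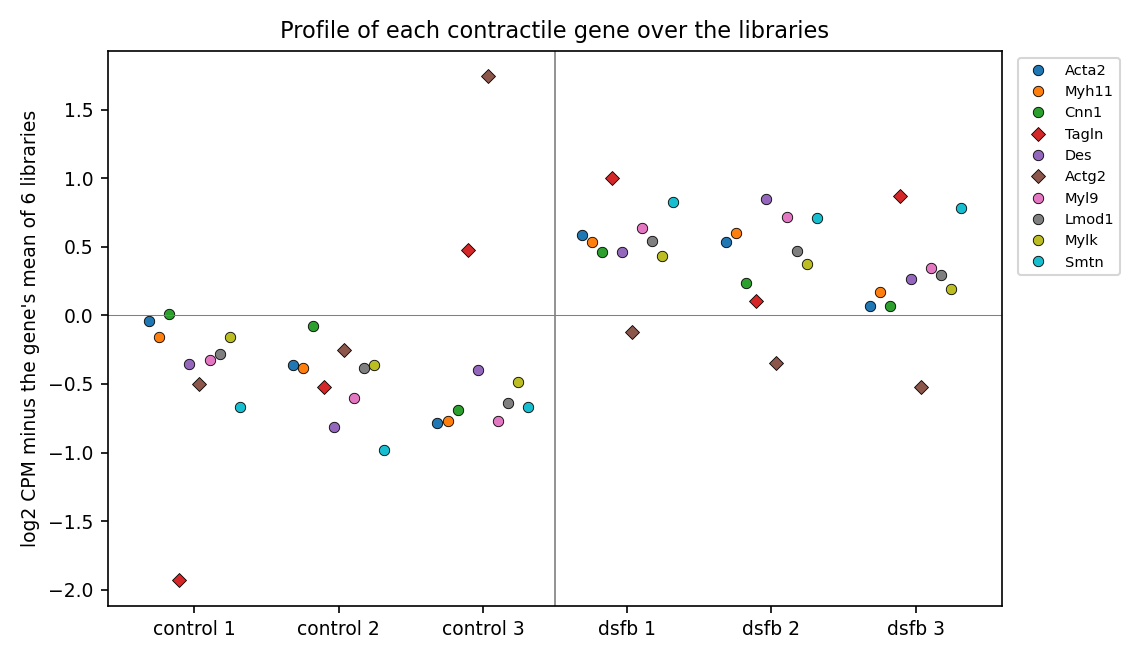
Log2 CPM of each contractile gene in each library after subtracting the gene's mean over the 6 libraries; circles are the 8 genes with separated groups, diamonds are Actg2 and Tagln. With TMM scaling every circle lies above 0 in dsfb and, apart from Cnn1 in control replicate 1, below 0 in control.

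Short sequences before the RefSeq starts of the members show where a CArG box can be read. The 250 bases before each start were searched for the CArG box (a pair of C, then 6 letters that are A or T, then a pair of G, a form that reads alike on both strands) and for the same element with 1 other letter in its core. Start windows from RefSeq (GRCm38.p6) were at hand for 7 members, and Myh11, Tagln and Actg2 had none. Of the 7, 1 held a full CArG box and 2 held one with up to 1 other core letter, beside 1.62% and 9.78% of 27025 genes. These are the matches, shown because SRF acts on this element, with it in capitals and 10 bases on each side. Only the stretch labelled full box is a CArG box as defined. The second box of Myl9 and the far and near boxes of Acta2 each have 1 other core letter.
Myl9, full box: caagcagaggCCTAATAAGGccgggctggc
Myl9, second box: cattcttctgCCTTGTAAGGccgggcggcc
Acta2, far box: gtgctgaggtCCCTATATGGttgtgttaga
Acta2, near box: cgtctttgctCCTTGTTTGGgaagcgagtg
Those of Myl9 lie on the plus strand at chr2:156775293-156775322 and chr2:156775355-156775384, and those of Acta2 on the minus strand at chr19:34255438-34255467 and chr19:34255388-34255417. Des, Cnn1, Lmod1, Mylk and Smtn had no such letters in their windows. Whether matches go with the size of a change was not tested. For Acta2 the RefSeq start, at 34255373, lies 217 bases inside the GENCODE gene, so both stretches are upstream of the RefSeq start and within the GENCODE gene. The RefSeq starts of Mylk and Smtn also lie inside their GENCODE genes, by 39740 and 1320 bases. A match is a stretch of letters and was not tested as a binding site.

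The regulators of these genes moved in both directions. Of 12 listed genes, all tested, 7 rose and 2 fell, with a median log2 fold change of 0.73. Srf itself was at 49.8, 51.4 and 83.2 CPM in control and at 73.2, 68.6 and 78.5 CPM in dsfb and did not pass (log2 0.26, SE 0.20, edgeR adjusted p = 0.278). Myocd, the coactivator myocardin, was at 0.695 to 2.65 CPM in control and 1.51 to 1.73 CPM in dsfb. The actin-regulated SRF coactivators differed from each other: Mrtfa fell (log2 -1.10, SE 0.15, edgeR adjusted p = 0.000482) and Mrtfb rose (log2 0.69, SE 0.10, edgeR adjusted p = 0.000555). Every dsfb library was below every control for Mrtfa, as for 38.5% of all tested genes, and above for Mrtfb, as for 36.2%. Relative to Sertoli markers Mrtfb was called lower, with a log2 change of -0.31. Fhl1, a LIM-domain protein of muscle, rose with a log2 change of 1.19 (SE 0.12), Smad3, the mediator of TGF-beta signals, with 1.12 (SE 0.15) and Elk1, an ETS partner of SRF, with 1.03 (SE 0.17). The other fall was Klf4, a repressor of smooth muscle genes, named after its values were seen. It was at 29.0, 23.5 and 118 CPM in control and 16.7 to 20.6 CPM in dsfb, and its log2 value of -1.66, with an SE of 0.58, passed (edgeR adjusted p = 0.0360). Without control replicate 3 the change was -0.57 (SE 0.13, edgeR adjusted p = 0.00049), and the call was lost without any 1 of the dsfb libraries.

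The other genes of contraction were taken from a longer list. Of 38 listed genes 36 were tested, 16 rose, 2 fell and 18 did not pass, with a median of 0.51. The rises included Flna, the actin cross-linker filamin A (log2 0.97, SE 0.12, edgeR adjusted p = 0.000247), Itpr1, the calcium release channel of the endoplasmic reticulum (0.99, SE 0.10), and Pdlim7, a PDZ-LIM protein of actin filaments (0.91, SE 0.13). Both falls were large. Cacna1h, a T-type calcium channel subunit, was at 230, 268 and 422 CPM in control and 31.7, 32.5 and 42.9 CPM in dsfb (log2 -3.10, SE 0.25, edgeR adjusted p = 3.19e-05). Agtr1a, an angiotensin II receptor, was at 11.6, 12.9 and 16.5 CPM in control and 0.688 to 1.24 CPM in dsfb (log2 -3.81, SE 0.29). In both, control replicate 3 was the highest library. Without that library Ppp1r12b and Ppp1cb, subunits of myosin phosphatase, were called lower too, which makes 4 falls. With upper-quartile scaling 26 genes of this list rose and with library size alone 29, with the median of all genes moved by 0.28 and 0.40.

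Non-muscle and striated relatives of the members were compared in a list of 21 genes, of which 15 were tested, 9 rose and 4 fell. Myh9, a non-muscle myosin heavy chain, rose (log2 1.19, SE 0.11, edgeR adjusted p = 7.35e-05). Smtnl1, a smoothelin-like gene, was at 3.07, 3.72 and 5.84 CPM in control and had 1 count in the dsfb libraries together.

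**Figure D3:**
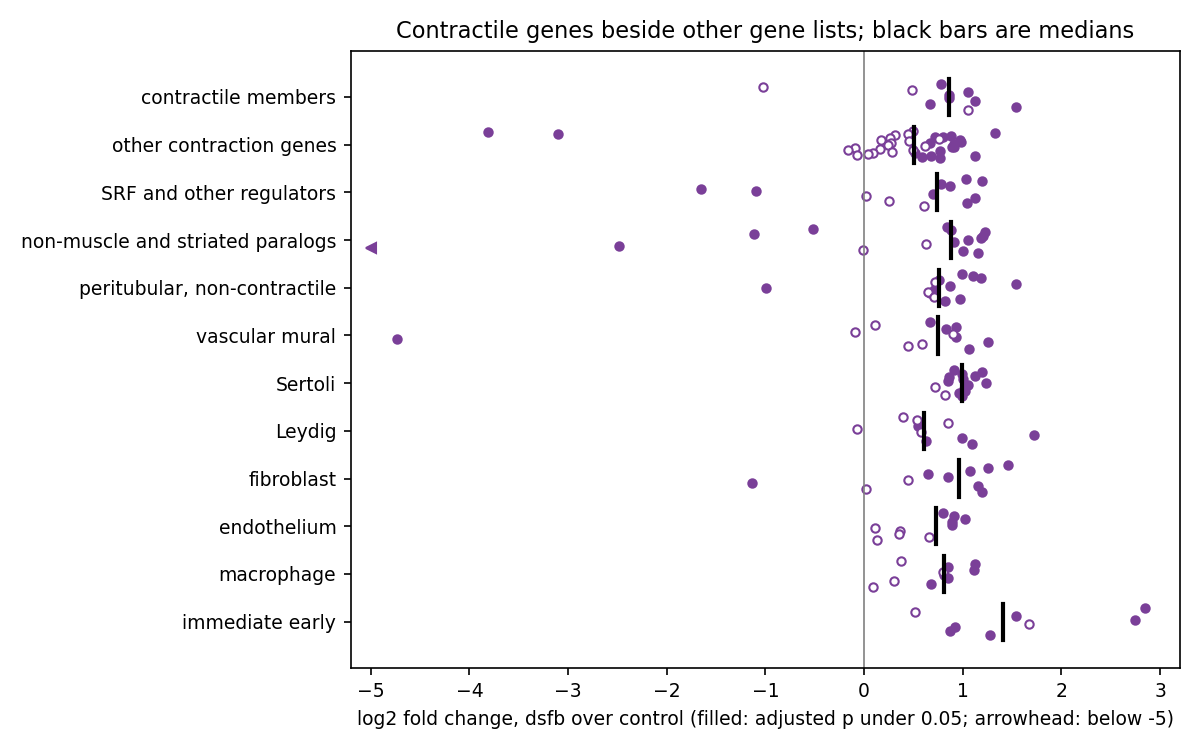
Log2 fold change of dsfb over control with TMM scaling for every tested gene (points) of the contractile members and 11 other lists; filled points passed edgeR at an adjusted p under 0.05, the arrowhead is Smtnl1, and black bars are list medians. The members' median of 0.86 lies among those of Sertoli (0.997), fibroblast (0.96), macrophage (0.81) and vascular mural genes (0.75). Relative to Sertoli markers the members' median is -0.13.

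Genes of other somatic cells were higher in the same libraries. Of 15 Sertoli markers 13 rose and 0 fell (median 0.997). By p, Cldn11 (log2 1.20, SE 0.11) and Gata4 (1.06, SE 0.10) came first, while the largest change was that of Fshr, the receptor of follicle-stimulating hormone (1.23, SE 0.19). The 15 markers summed to 2795 to 3702 CPM in control and 6465 to 6851 CPM in dsfb. Among 15 genes of peritubular cells outside the contractile machinery 11 rose and 1 fell (median 0.76). The smallest p-values of this list belonged to the basement membrane genes Col4a2 and Col4a1, with log2 changes of 1.18 (SE 0.10) and 1.10 (SE 0.13), and its largest change to Gli1, a target of hedgehog signalling (1.54, SE 0.23). Vascular mural cells use the same contractile proteins. Of their 12 markers 6 rose and 1 fell (median 0.75), and the list summed to 92.4 to 102 CPM in control and 137 to 144 CPM in dsfb. Mcam rose (0.93, SE 0.14), Ndufa4l2 fell (-4.74, SE 0.42), and the pericyte marker Rgs5 was at 5.66 to 12.4 CPM in control and 10.7 to 14.5 CPM in dsfb (edgeR adjusted p = 0.220). Lists of Leydig cells (5 of 10 rose, median 0.60), fibroblasts (7 of 10 rose and 1 fell, median 0.96), endothelium (5 of 10 rose, median 0.73) and macrophages (6 of 10 rose, median 0.81) had medians above 0 as well. With 1 library left out the Leydig count ran from 2 (without dsfb replicate 1 or 3) to 9 (without control replicate 3) and was 3 without any other library. The endothelial count was 2 without dsfb replicate 1 and 3 without control replicate 1 or 2, and the macrophage count was 3 without control replicate 2 or dsfb replicate 3. The part of these cells in the result for the contractile genes was not tested.

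Relative to Sertoli markers 7 of the contractile genes did not pass. When libraries were scaled to the mean log2 CPM of the Sertoli list, 1 of the 10 rose and 2 fell, beside 1.53% and 61.8% of all tested genes, whose median moved by -1.01. The log2 change of Acta2 became -0.20 (SE 0.18 and edgeR adjusted p = 0.379), Myh11 of -0.12 (SE 0.16), Lmod1 of -0.13 (SE 0.18), Des of 0.05 (SE 0.24), Myl9 of 0.14 (SE 0.14) and Tagln of 0.01 (SE 0.61). Cnn1 was at -0.50 (SE 0.21, edgeR adjusted p = 0.0683) and was called lower without control replicate 3 (-0.62, edgeR adjusted p = 0.000728), as was Acta2 (-0.31, edgeR adjusted p = 0.0469). Smtn rose (0.53, SE 0.18, edgeR adjusted p = 0.0331) and stayed positive without any 1 library, from 0.45 to 0.67, but the call held only without control replicate 3. Mylk fell (-0.33, SE 0.11, edgeR adjusted p = 0.0340), ranging from -0.38 to -0.24, and was called only without control replicate 1 or 3. Actg2 fell (-2.12, SE 0.65, edgeR adjusted p = 0.0223), or by 0.88 without control replicate 3, and lost its call without any 1 dsfb library. Scaled to Leydig markers, which moved the median of all genes by -0.78, 0 of the 10 rose and Actg2 alone fell (log2 -1.66, SE 0.43), beside 1.02% and 44.5% of all tested genes.

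**Figure D4:**
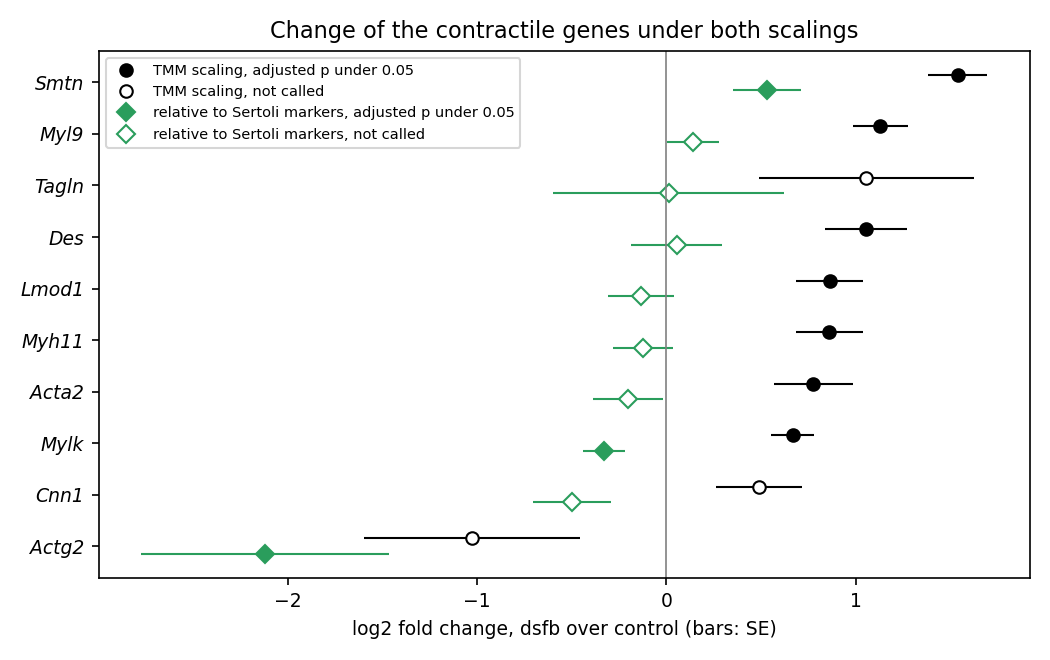
Log2 fold change of dsfb over control with its SE for each contractile gene, with TMM scaling (black circles) and with libraries scaled to Sertoli markers (green diamonds); filled symbols passed edgeR at an adjusted p under 0.05. Under TMM scaling 7 genes lie above 0 and are filled, while under the Sertoli scaling all but Actg2 lie between -0.50 and 0.53.

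By centred log2 CPM across the 6 libraries, the genes closest to the mean profile of all 10 members were Phactr1, Cotl1, Cstf2, Sin3b and Slc31a2. They came out of 12782 genes with a mean of at least 5 CPM. Likeness was the root mean square difference in centred log2 CPM, which was 0.0463 for Phactr1 and 0.0697 for Slc31a2. Those 5 were picked as the closest, and the members' own distances from this mean ran from 0.154 for Mylk to 0.988 for Actg2. The mean included Actg2 and Tagln (0.766), so it was not the profile of the other members. In all 5 genes control replicate 3 was the highest control, while it was the lowest for 6 of the 10 members. Phactr1, an actin-binding phosphatase regulator, was at 18.3, 18.5 and 19.01 CPM in control and at 34.8, 33.8 and 30.2 CPM in dsfb.

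Immediate early genes, which respond to handling of tissue and of which several are themselves SRF targets, were higher in dsfb. Of 8 genes 6 rose (median 1.41), among them Egr1 (log2 1.54, SE 0.18) and Junb (1.28, SE 0.19). The sums were 57.3, 51.4 and 56.7 CPM in control replicates 1, 2 and 3 and 125, 150 and 102 CPM in the dsfb libraries in the same order. In control replicate 3 was thus not the lowest, and in dsfb it was, with replicate 2 the highest. Their part in the result was not tested.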

How the data were processed

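Raw gene counts (unit counts) of 6 libraries were deposited as 1 table, and all 6 columns were used, 3 per group. Per the labels' protocols, extraction used TRIzol and library preparation a NEBNext Ultra kit. STAR 2.6.0 and mm10 are named in the submitters' processing notes. The sources used here name no counting tool, annotation or strandedness. Symbols, positions and merged exon lengths came from GENCODE M21 (GRCm38), which held 55227 of the identifiers.

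The fit used edgeR 4.0.16 in R 4.3.3 (filterByExpr, TMM, glmQLFit, glmQLFTest) with group as the only term, on the whole table, two-sided. P-values were adjusted by Benjamini-Hochberg over 19826 genes with a threshold of 0.05. Each SE equals |log2 change| divided by √F. CPM use TMM-scaled library sizes.

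The 10 members and the lists were chosen with earlier results of these data known. Of 200 listed symbols 198 matched by symbol and 2 by synonym. The list of 8 spermatid genes was drawn up with the values in view. Beside the members, the genes named are the 5 with the smallest p in the contraction and regulator lists, the 2 with the smallest p in other lists, and the 5 most like the members. Srf, Myocd, Klf4, Rgs5, Acta1, Actc1, Actb, Actg1, Ckm, Ttn, Neb, Gli1, Fshr, Krt19, Ppp1r12b and Ppp1cb were named outside this rule, after their values were seen.

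Alternatives were RLE, upper-quartile and library-size scaling, scaling to Sertoli or Leydig markers, 2 filters, DESeq2 1.42.0 (which left 207 adjusted p-values as NA), voom in limma 3.58.1, a 2-fold threshold, each library left out, and a replicate block. Leaving out libraries under the Sertoli scaling was added after the values were seen. The fit was tested on simulated data. Libraries within a group differed by more than sampling noise (chi-square per degree of freedom 4.09 to 74.1).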

Additional observations from a re-analysis of the deposited data

How the results depend on the processing

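Over all genes, scaling to Sertoli markers left 303 rises and 12256 falls, Leydig markers 203 rises, and the 2-fold threshold 542 rises and 4247 falls. Of the members, 1 rose and 2 fell with Sertoli markers, 0 rose and 1 fell with Leydig markers, 1 rose past the 2-fold threshold, and 1 fell with DESeq2. Of other contraction genes, 26 rose with upper-quartile scaling, 29 with library size alone, and 0 with Sertoli markers, Leydig markers or the 2-fold threshold; 16 fell with Sertoli and 4 with Leydig markers, and 2 to 4 with 1 library left out. Of the regulators, 0 rose with Sertoli markers, Leydig markers or the 2-fold threshold; 4 fell with Sertoli markers, 1 with upper-quartile scaling, library size alone or voom, 0 past the 2-fold threshold, and 1 to 2 with 1 library left out.

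Signs turned with Sertoli markers for Acta2 (-0.20), Myh11 (-0.12), Cnn1 (-0.50), Lmod1 (-0.13), Mylk (-0.33), Itpr1 (-0.0148), Flna (-0.0261), Pdlim7 (-0.0881), Mrtfb (-0.31), Mcam (-0.064), Pax8 (-0.26), Lrrn4 (-0.0084), Cdh5 (-0.20), Mrc1 (-0.33), Phactr1 (-0.19), Cotl1 (-0.26), Cstf2 (-0.29), Sin3b (-0.26) and Slc31a2 (-0.21). With Leydig markers they turned for Acta2 (-0.0404), Cnn1 (-0.34), Mylk (-0.12), Mrtfb (-0.0724), Pax8 (-0.0595), Cdh5 (-0.0159), Mrc1 (-0.0713), Cotl1 (-0.0176), Cstf2 (-0.0444) and Sin3b (-0.0155). With 1 library left out Actg2 ranged from -1.43 to 0.0203, the latter without control replicate 3. Relative to Sertoli markers with 1 library left out, Myh11 ranged from -0.23 to 0.0187, Tagln from -0.45 to 0.79 and Des from -0.16 to 0.20. The cause was not tested.

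Cnn1 passed with upper-quartile scaling (0.76), library size alone (0.87) and the replicate block (0.51), and Tagln with library size alone (1.46). The same-numbered libraries correlated at 0.071, 0.061 and 0.116, so the numbers were not taken as pairs, though each library correlated best with its own number. With the replicate block 6228 genes rose and 7203 fell, and 8 members rose. Few counts limit Tagln.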

Other observations

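Lists of tissue that could be carried over in dissection differed in level, and carry-over was not tested. Genes of epididymis and ducts summed to 1.30 to 7.73 CPM per library, and those of mesothelium and capsule to 10.8 to 28.1 CPM. Of 12 genes of epididymis and ducts 9 were under 1 CPM in every library, 4 had 0 counts in all libraries, 0 rose and 1 fell. That gene, Rnase10, was at 4.87 to 5.75 CPM in control and had 0 counts in dsfb. Of 6 genes of mesothelium and capsule 3 were tested, of which Lrrn4 rose (log2 0.99, SE 0.22) and Muc16 (-6.16, SE 0.98) and Krt19 (-2.04, SE 0.45) fell. For Muc16 the control libraries gave 4.28, 3.59 and 20.3 CPM, the last in replicate 3.

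Of 14 skeletal muscle genes 9 were tested and 7 were under 1 CPM in every library. Actn3, a sarcomeric alpha-actinin, rose from 32.3, 24.1 and 29.2 CPM in control to 90.2, 86.7 and 66.4 CPM in dsfb (log2 1.51, SE 0.16), and Myh1 rose with a log2 change of 1.04 (SE 0.18). The list summed to 79.0 to 109 CPM in control and 136 to 159 CPM in dsfb. Acta1 and Ckm stayed under 0.5 CPM in all libraries, while the sarcomere genes Ttn, at 21.5 to 43.5 CPM in control and 23.6 to 34.7 CPM in dsfb, and Neb, at 21.2 to 25.4 CPM and 19.6 to 23.2 CPM, did not pass. In the Leydig list the smallest p belonged to Ldhb (0.995, SE 0.12) and Insl3 (1.73, SE 0.51), the latter sharing 64.8% of its exonic bases with Jak3. In the fibroblast list they were Col1a2 (1.26, SE 0.12) and Col1a1 (1.46, SE 0.14), in the endothelial list Cdh5 (0.80, SE 0.19) and Egfl7 (1.02, SE 0.27), and in the macrophage list Mrc1 (0.68, SE 0.10) and C1qa (1.12, SE 0.23).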
